A study of Mus musculus with 8 samples.

Results

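The Yap and serum response target genes are 10 mouse genes, Ankrd1, Ccn1, Ccn2, Amotl2, Thbs1, Lats2, Ajuba, Srf, Vcl and Flna, out of 18194 genes that the array's annotation names. They were chosen by name. All probe sets assigned to 1 of them alone were used, 22 of the 45101 on the array, and 2 further probe sets that list a member together with another gene were not used. The study compared mesenchyme, the loose connective tissue around the epithelium, from lungs of CD1 mouse embryos between embryonic days 11.5 and 12.5. In the Wnt1 culture group, mesenchyme of the lung stalk was kept for 12 h on tissue culture plastic in medium with 400 ng/ml of the secreted ligand Wnt1. The control culture group was stalk mesenchyme kept for 12 h on the same plastic in medium without the ligand. Mesenchyme surrounding the bud tips and mesenchyme of the stalk, 2 further groups, were taken without culture. Each of these 4 groups has 2 arrays, which gives 8 in all, and the labels name no mutation, transgene or other agent in any group. Separate litters or cultures are not named for the replicates, so the p-values rest on the spread of arrays that may differ for technical reasons alone. Each piece of tissue can hold several cell types, and fewer cells of a type and less RNA per cell cannot be told apart.

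Yap and its relative Taz are transcriptional coactivators that have no DNA-binding domain and reach their target genes through the Tead transcription factors. The Hippo kinases Lats1 and Lats2 phosphorylate Yap and keep it out of the nucleus, and in cultured cells Yap moves into the nucleus when cells spread on a stiff surface. Serum response factor, Srf, binds the CArG box and works with partners of different kinds. Myocardin-related coactivators, held back by unpolymerised actin, lead it to genes of the cytoskeleton and of smooth muscle, and Elk-type factors lead it to immediate early genes such as Fos. Several genes, among them Ankrd1, Ccn1 and Ccn2, are known as targets of both pathways. In the embryonic lung, mesenchymal cells beside the stalk epithelium are known to form airway smooth muscle.

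The promoters of 5 members are shown because they hold letters that these factors are known to bind. RefSeq's table for GRCm38.p6 held 9 start sites for 8 of the members, and Ccn2 and Thbs1 are named only. The searched motifs were the core of the Tead site, GGAATG or CATTCC on the other strand, and the CArG box, searched on both strands. They do not overlap each other in these windows. The 250 bases before each start are given 5′ to 3′ on the strand of the gene, with motif matches in capitals.
Ankrd1, chr19:36119845-36120094, minus strand: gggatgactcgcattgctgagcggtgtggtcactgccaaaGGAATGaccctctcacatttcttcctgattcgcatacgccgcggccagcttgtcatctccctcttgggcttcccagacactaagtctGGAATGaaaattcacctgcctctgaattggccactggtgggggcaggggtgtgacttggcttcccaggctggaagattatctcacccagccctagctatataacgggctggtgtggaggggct
Ccn1, chr3:145649986-145650235, minus strand: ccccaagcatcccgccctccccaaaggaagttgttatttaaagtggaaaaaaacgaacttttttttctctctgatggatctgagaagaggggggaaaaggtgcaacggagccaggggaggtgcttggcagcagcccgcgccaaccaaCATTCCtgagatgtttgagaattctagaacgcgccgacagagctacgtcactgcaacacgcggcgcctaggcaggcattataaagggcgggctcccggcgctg
Ajuba, chr14:54577662-54577911, minus strand: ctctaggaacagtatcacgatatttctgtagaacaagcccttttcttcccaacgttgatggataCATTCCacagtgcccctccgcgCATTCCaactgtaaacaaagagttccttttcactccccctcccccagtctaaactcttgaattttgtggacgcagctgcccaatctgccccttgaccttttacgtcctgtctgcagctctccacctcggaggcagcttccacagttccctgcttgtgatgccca
Srf, chr17:46556163-46556412, minus strand: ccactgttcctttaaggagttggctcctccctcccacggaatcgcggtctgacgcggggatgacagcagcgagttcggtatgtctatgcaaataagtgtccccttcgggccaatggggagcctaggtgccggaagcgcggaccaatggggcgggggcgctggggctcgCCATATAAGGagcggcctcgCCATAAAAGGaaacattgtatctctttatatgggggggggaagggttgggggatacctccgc
Vcl, chr14:20929148-20929397, plus strand: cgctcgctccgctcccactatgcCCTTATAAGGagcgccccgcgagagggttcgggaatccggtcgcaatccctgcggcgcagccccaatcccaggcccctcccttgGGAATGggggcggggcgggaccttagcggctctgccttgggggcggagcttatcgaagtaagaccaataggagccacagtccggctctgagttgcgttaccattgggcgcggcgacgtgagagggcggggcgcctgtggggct
The Ankrd1 promoter holds the Tead core 2 times, at bases -210 to -205 and -123 to -118 counted back from -1 at the base before the start. The Ajuba promoter also holds it 2 times, and those of Ccn1, Vcl, Amotl2 and Flna hold it 1 time each. Srf has 2 CArG boxes, at -82 to -73 and -62 to -53, and Vcl has 1, at -227 to -218. In all, 6 of the 9 member windows hold the Tead core, against 12.6% of 32851 promoter windows of the same length, and 2 hold a CArG box, against 1.47%. These are matches of letters and were not tested for binding.

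The deposited values are MAS5 signal intensities, a linear brightness per probe set, with the trimmed mean of every array at 500. Pairs of values are given with replicate 1 before replicate 2. The median of all probe sets was 296 and 149 on the Wnt1 culture arrays, 299 and 209 on the control culture arrays, 99.8 and 86.3 on the tip arrays and 95.5 and 76.5 on the stalk arrays. The highest of these medians, 299, serves below as the level under which a signal is treated as close to noise. It is above the median of every uncultured array, so an uncultured signal below it can still exceed the median of its own array. Of the 10 members, 8 were above it on all 8 arrays with their brightest probe set, and Ankrd1 and Thbs1 were above it in the cultures alone. The ratio of the 3′ to the 5′ probe set of Actb, a sign of RNA and labelling quality, was 21.2 and 6.81 in Wnt1 culture, 23.3 and 24.4 in control culture, 3.65 and 3.84 in tip and 4.52 and 2.02 in stalk. These shifts run with culture, and their part in the differences between cultured and uncultured tissue was not tested. Differences are given on the scale of log2(signal + 44), which understates the change of dim probe sets, and each gene is represented by its brightest probe set. The median difference of the 37394 tested probe sets was 0.72 for control culture against stalk and 0.56 for Wnt1 culture against stalk.

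**Figure D1:**
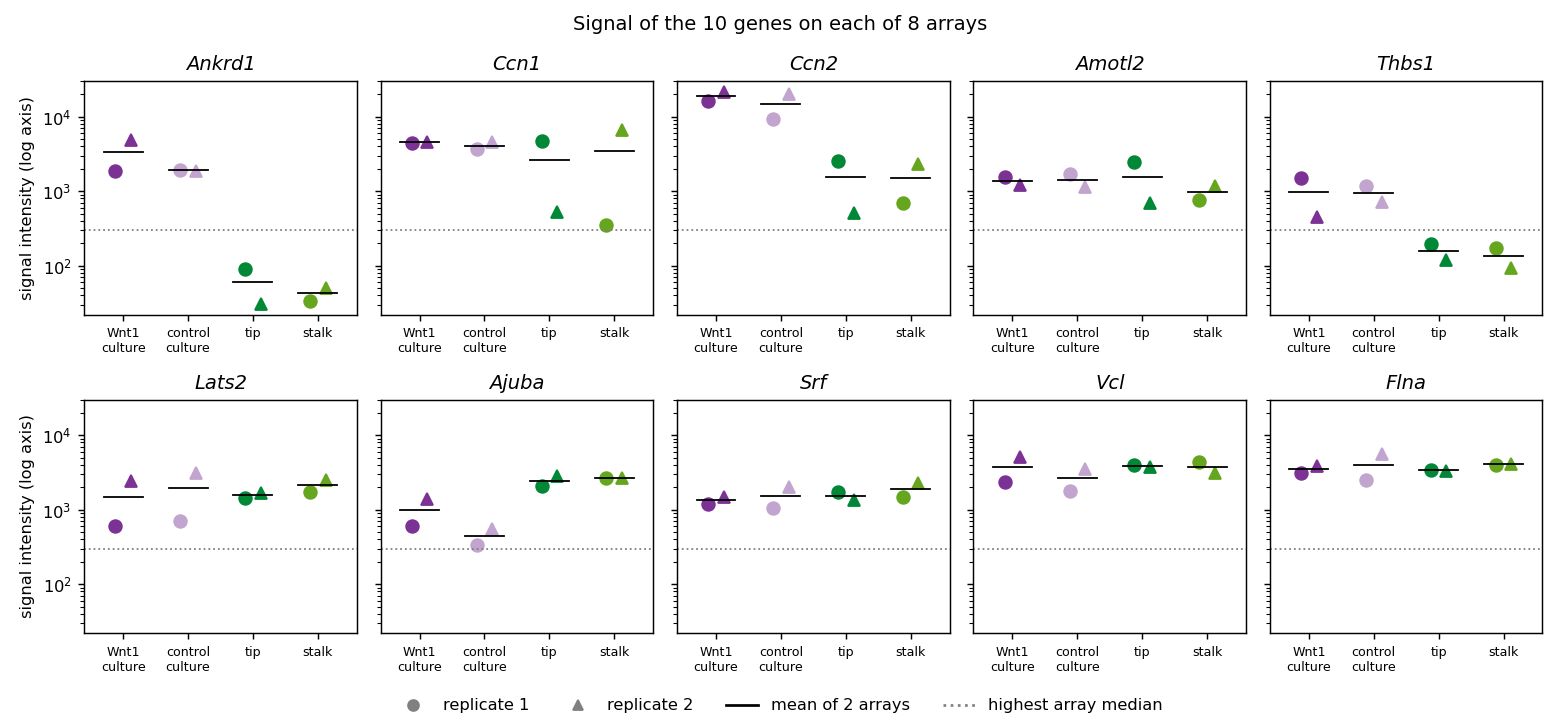
Signal intensity (log axis) of the brightest probe set of each of the 10 genes, with 1 point per array and the groups in the order Wnt1 culture, control culture, tip and stalk. The dashed line is the highest array median, 299. Ankrd1, Ccn2 and Thbs1 lie higher on all 4 culture arrays than on all 4 uncultured ones, Ajuba lies lower, and Ccn1 is split within tip and within stalk.

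The comparison of control culture with stalk shows what differed after 12 h on plastic. Ankrd1, Ccn2 and Thbs1 rose and Ajuba fell, and the other 6 members did not pass the test. The same 4 genes passed in the same directions when Wnt1 culture was set against stalk. In control culture 3 of the 10 members were higher, against 16.8% of all tested probe sets, and 1 was lower, against 6.42%. In Wnt1 culture 3 of the 10 were higher, against a background of 7.09%, and 1 was lower, against 4.34%. The arrays of the groups did not overlap in 3 higher and 1 lower members for control culture, against 51.4% and 19.7% of probe sets, and in 4 higher and 3 lower members for Wnt1 culture, against 45.0% and 19.9%. Both comparisons use the same 2 stalk arrays, so they are not independent of each other. The members' median difference was 0.21 for control culture and 0.23 for Wnt1 culture, below the medians of all tested probe sets, many of them dim. With only the brightest probe set of each gene, the median over all genes was 0.45 for control culture and 0.35 for Wnt1 culture. Among probe sets above 299 on at least 2 arrays it was 0.28 for control culture and 0.20 for Wnt1 culture, near the members' values. Attachment to plastic, the medium, the time in culture and the change in cell makeup cannot be told apart.

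Ankrd1 encodes a protein of muscle sarcomeres and nuclei and is among the genes most widely used as readouts of Yap. Its signal was 1853 and 4806 in Wnt1 culture, 1921 and 1883 in control culture, 91.0 and 30.3 in tip and 34.0 and 50.6 in stalk. All 4 culture arrays stood far above all 4 uncultured arrays, which were themselves close to noise. The difference from stalk was 4.50 ± 0.50 on the log2 scale (SE, n = 2 arrays each) in control culture, with adjusted p = 0.00052, and 5.14 ± 0.50 in Wnt1 culture, with adjusted p = 0.00020. The ratio of mean signals was 45.0 for control culture and 78.7 for Wnt1 culture, and with the stalk values raised to the noise level these were 6.37 for control culture and 11.2 for Wnt1 culture. The second Ankrd1 probe set gave the same picture at a lower signal. It read 958 and 891 in Wnt1 culture, 464 and 377 in control culture, 8.14 and 7.65 in tip and 2.51 and 14.6 in stalk, and its differences from stalk of 3.15 in control culture and 4.21 in Wnt1 culture both passed. The test was missed under 1 of 23 alternative settings, when all signals below 299 were set to 299, with adjusted p = 0.069 for control culture and 0.068 for Wnt1 culture.

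Ccn2, formerly Ctgf, encodes a secreted matrix-associated protein that is induced by Yap and by Tgfb. Its signal was 16243 and 21719 in Wnt1 culture, 9281 and 20169 in control culture, 2549 and 511 in tip and 691 and 2333 in stalk. Every culture array was above every uncultured array, and within tip and within stalk the replicates lay far apart. The mean signal in control culture was 9.74 times and in Wnt1 culture 12.6 times that of stalk. The differences were 3.38 ± 0.65 (SE) in control culture, with adjusted p = 0.0075, and 3.83 ± 0.65 in Wnt1 culture, with adjusted p = 0.0059. Without stalk replicate 1, the lower of the stalk arrays, they were 2.53 with adjusted p = 0.071 for control culture and 2.99 with adjusted p = 0.060 for Wnt1 culture.

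Thbs1 encodes thrombospondin 1, a matrix glycoprotein that helps activate latent Tgfb. Its brighter probe set read 1527 and 448 in Wnt1 culture, 1174 and 723 in control culture, 193 and 121 in tip and 172 and 94.3 in stalk. The groups did not overlap between cultured and uncultured tissue, although all uncultured values were below the noise level. On all 8 arrays this probe set was above the median of its own array. The differences from stalk were 2.48 ± 0.56 (SE), with adjusted p = 0.013, in control culture and 2.35 ± 0.56, with adjusted p = 0.023, in Wnt1 culture. The second probe set, never above 299 on any array, differed from stalk by 1.002 in control culture and by -0.09 in Wnt1 culture, and neither passed. Thbs1 is the least stable of the 3 higher genes, with the test passed under 16 of 23 alternatives in control culture and 15 of 23 in Wnt1 culture. The test was missed without stalk replicate 1 or 2 in both comparisons, without control culture replicate 1, where the difference was 2.15 with adjusted p = 0.092, and without Wnt1 culture replicate 1, where it was 1.51 with adjusted p = 0.14.

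**Figure D2:**
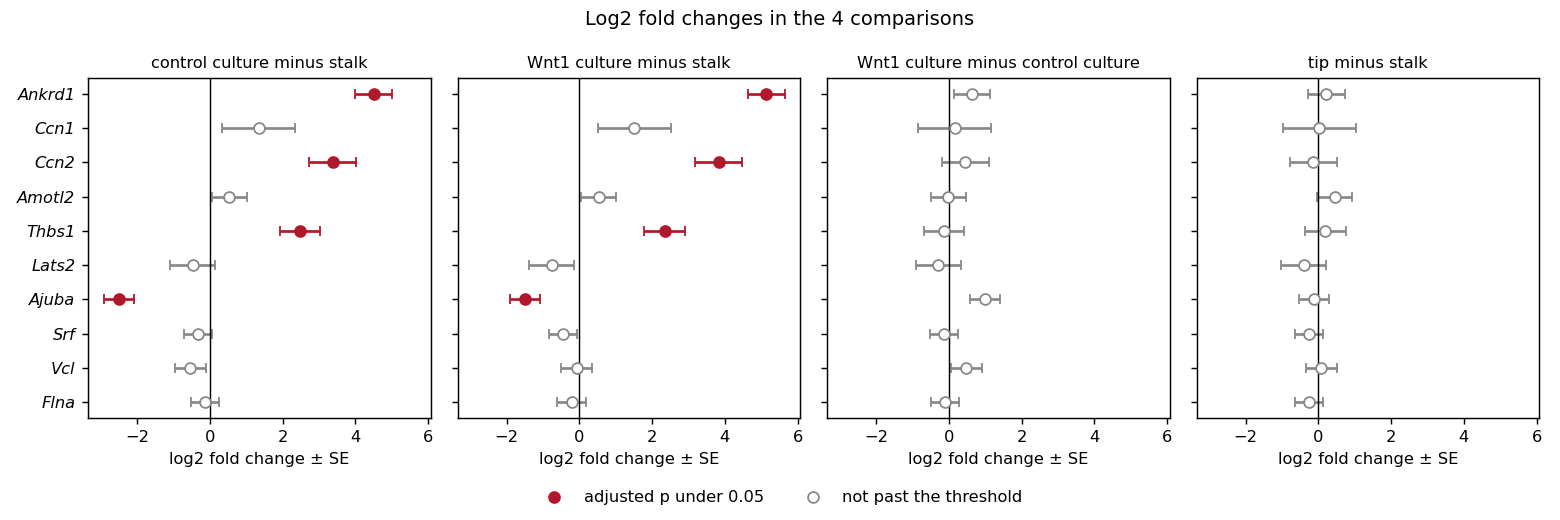
Differences on the log2(signal + 44) scale for the 10 genes in the 4 comparisons, with bars of 1 standard error and filled points where the adjusted p was under 0.05. Ankrd1, Ccn2, Thbs1 and Ajuba pass in both comparisons of culture with stalk, and no gene passes between tip and stalk or between the cultures.

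Ajuba encodes a LIM-domain scaffold that binds Lats kinases at cell junctions and is known to restrain them, so it acts upstream of Yap. It read 596 and 1373 in Wnt1 culture, 336 and 551 in control culture, 2110 and 2801 in tip and 2654 and 2641 in stalk. The culture arrays were below all uncultured arrays, and the 2 stalk arrays were almost equal. The difference from stalk was -2.50 ± 0.42 (SE), with adjusted p = 0.0044, in control culture and -1.50 ± 0.42, with adjusted p = 0.037, in Wnt1 culture. The mean signal was 0.168 times that of stalk in control culture and 0.372 times in Wnt1 culture. Without stalk replicate 2 the control culture value was -2.50 with adjusted p = 0.051. The Wnt1 culture value passed under 15 of 23 alternatives, was -0.93 with adjusted p = 0.19 without Wnt1 culture replicate 1, and missed the test at -1.50 without any 1 of the tip and stalk arrays. Ajuba has a single probe set on the array.

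Ccn1, formerly Cyr61, encodes a secreted relative of Ccn2 that is both a Yap target and an immediate early gene. It read 4476 and 4635 in Wnt1 culture, 3660 and 4553 in control culture, 4679 and 528 in tip and 347 and 6671 in stalk. The cultures were alike and lay between the extremes of the uncultured arrays. The difference from stalk was 1.35 ± 1.004 (SE, adjusted p = 0.31) in control culture and 1.51 ± 1.004 (adjusted p = 0.29) in Wnt1 culture. The sign rests on single stalk arrays: across the fits that leave out 1 array the value ran between -0.70 and 3.40 in control culture and between -0.55 and 3.56 in Wnt1 culture. The 3 other Ccn1 probe sets differed from stalk by 0.51 to 1.47 in control culture and by -0.04 to 0.14 in Wnt1 culture, with none past the test. Amotl2, a junction protein that binds Yap and is also a target of it, read 1555 and 1226 in Wnt1 culture, 1699 and 1141 in control culture, 2437 and 684 in tip and 766 and 1163 in stalk. Its difference of 0.54 ± 0.49 in control culture and 0.53 ± 0.49 in Wnt1 culture did not pass, and it changed sign, to -0.64 and -0.46, when arrays were centred on their medians.

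Lats2, the kinase that phosphorylates Yap and is itself a Yap target, had 6 probe sets that disagreed. The brightest read 610 and 2395 in Wnt1 culture, 698 and 3155 in control culture, 1451 and 1692 in tip and 1734 and 2534 in stalk. In both cultures replicate 1 was well below replicate 2, and the groups overlapped. Its differences from stalk, -0.47 ± 0.63 (SE) in control culture and -0.76 ± 0.63 in Wnt1 culture, did not pass. A second probe set read 241 and 240 in Wnt1 culture, 172 and 252 in control culture, 654 and 591 in tip and 634 and 480 in stalk. This one was lower on every culture array, by -1.24 in control culture with adjusted p = 0.052 and by -1.07 in Wnt1 culture with adjusted p = 0.10. Another read 181 and 89.0 in Wnt1 culture, 382 and 201 in control culture, 20.2 and 11.02 in tip and 3.17 and 2.51 in stalk. Its difference of 2.79 ± 0.62 in control culture passed, with adjusted p = 0.012, although 1 of the 8 arrays alone was above the noise level. No direction is given for Lats2, since its probe sets run opposite ways.

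**Figure D3:**
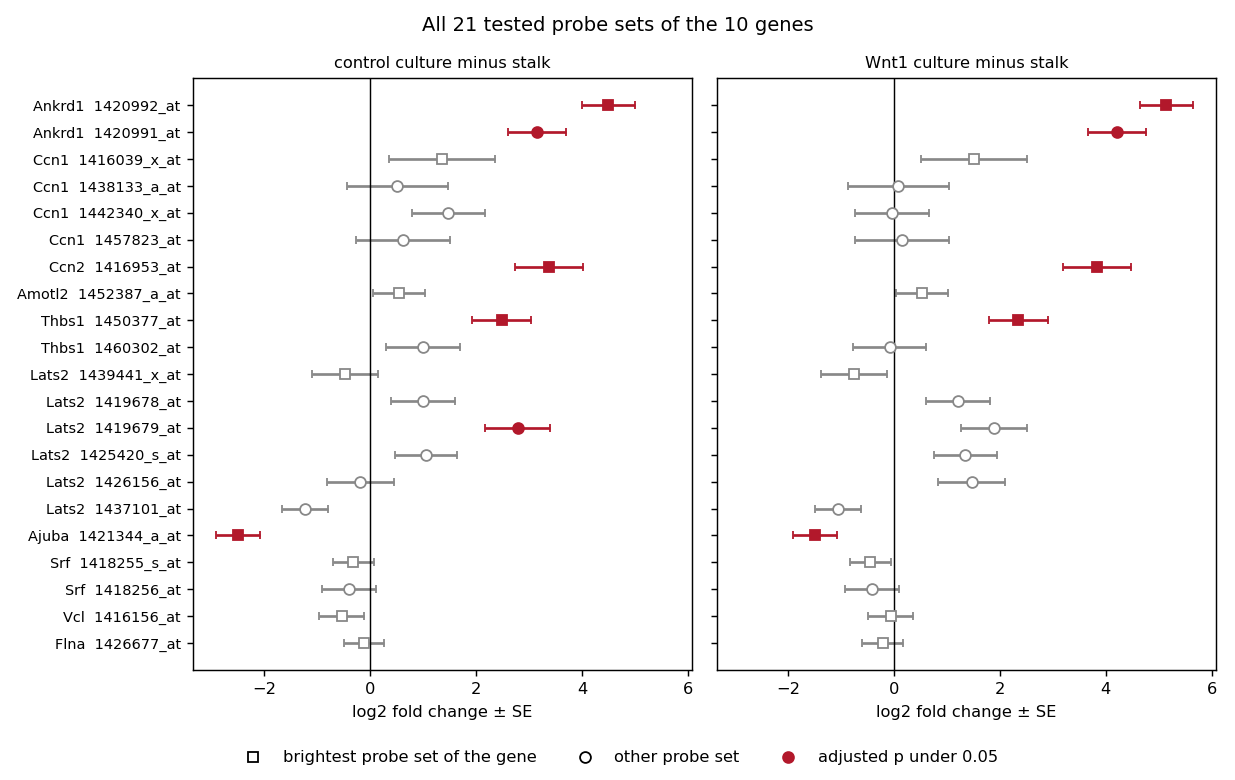
Differences from stalk, on the log2(signal + 44) scale, of each tested probe set of the members, for control culture and Wnt1 culture, with bars of 1 standard error. Squares are the brightest probe set of each gene. The 6 Lats2 probe sets lie on both sides of 0, and the 2 Ankrd1 probe sets lie together above it.

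The members that encode Srf itself and actin-binding proteins did not pass the test in culture. Srf read 1202 and 1472 in Wnt1 culture, 1055 and 2014 in control culture, 1717 and 1361 in tip and 1488 and 2268 in stalk. Its difference from stalk was -0.32 ± 0.39 (SE) in control culture and -0.45 ± 0.39 in Wnt1 culture, and after quantile normalization the control culture value was 0.09. Its second probe set gave -0.40 in control culture and -0.42 in Wnt1 culture. Vcl, which encodes vinculin, the protein that links integrin and cadherin contacts to actin, read 2361 and 5163 in Wnt1 culture, 1802 and 3477 in control culture, 3925 and 3799 in tip and 4381 and 3069 in stalk. It differed from stalk by -0.54 ± 0.43 in control culture and -0.07 ± 0.43 in Wnt1 culture, and the Wnt1 culture value was 0.21 after quantile normalization. Flna, which encodes the actin cross-linker filamin A, read 3116 and 3885 in Wnt1 culture, 2501 and 5522 in control culture, 3464 and 3321 in tip and 4041 and 4053 in stalk. Its differences of -0.12 ± 0.39 in control culture and -0.22 ± 0.39 in Wnt1 culture became 0.29 and 0.08 after quantile normalization. With the brightest probe sets of these 3 genes the control culture arrays overlapped the stalk arrays. The Wnt1 culture arrays overlapped them for Vcl but lay below them for Srf and Flna, as 19.9% of all tested probe sets did.

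Over all 21 tested probe sets of the 10 genes, 5 were higher and 1 was lower in control culture, and 4 were higher and 1 was lower in Wnt1 culture. Over all tested probe sets of the array, 16.8% were higher and 6.42% lower in control culture, and 7.09% higher and 4.34% lower in Wnt1 culture. In control culture the 5 were both Ankrd1 probe sets, 1 each of Ccn2 and Thbs1, and the dim Lats2 probe set. The second Vcl probe set was at or below 40.1 on all arrays and was not tested. The scale of the arrays matters for these counts: with arrays centred on their medians, 1 member was higher and 1 was lower in both comparisons, the higher one being Ankrd1. Of the 37394 tested probe sets, that centring gave 742 higher and 6822 lower in control culture, and 446 higher and 4550 lower in Wnt1 culture. With arrays centred on the median of the tested probe sets, a setting added after the data had been seen, the differences from stalk in control culture were 3.49 for Ankrd1, 2.37 for Ccn2, 1.48 for Thbs1 and -3.51 for Ajuba.

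Of 19 measured Hippo kinases and Yap partners, 1 rose and 8 fell in control culture, with a median difference of -0.83, and 0 rose and 8 fell in Wnt1 culture, with a median of -0.998. Over all tested probe sets 16.8% rose and 6.42% fell in control culture, and 7.09% rose and 4.34% fell in Wnt1 culture. Yap1 read 2316 and 2979 in Wnt1 culture, 2154 and 4004 in control culture, 6363 and 8563 in tip and 8415 and 7752 in stalk. Every culture array was lower than every uncultured array, and the difference from stalk was -1.44 ± 0.38 (SE, adjusted p = 0.021) in control culture and -1.60 ± 0.38 (adjusted p = 0.022) in Wnt1 culture. Limd1, a relative of Ajuba, Amotl1, a relative of Amotl2, and Mob1a, a cofactor of the Lats kinases, fell by 1.64, 1.70 and 1.57 in control culture. Tead3, a DNA-binding partner of Yap, was the gene that rose there, by 2.42, and in Wnt1 culture it differed by 1.03 with adjusted p = 0.094. Of the 8 genes that fell in control culture, 7 have other probe sets, and in 4 of these, Tead1, Sav1, Mob1a and Amot, at least 1 other probe set had the opposite sign. With the mean of all probe sets of each gene, 1 gene rose and 3 fell in control culture, 0 rose and 3 fell in Wnt1 culture, and the medians were -0.14 and 0.01. After quantile normalization 1 rose and 2 fell in control culture, and 0 rose and 1 fell in Wnt1 culture. Without stalk replicate 1, 1 rose and 0 fell in control culture and none passed in Wnt1 culture, and without stalk replicate 2 none passed in either.

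Of 17 other genes that are widely used as Yap targets, 2 rose and 1 fell in control culture, with a median of 0.35, and 1 rose and 1 fell in Wnt1 culture, with a median of 0.18. These counts are near the shares over all probe sets, 16.8% higher and 6.42% lower in control culture and 7.09% higher and 4.34% lower in Wnt1 culture. The higher ones were Dock5, a guanine nucleotide exchange factor, at 1.42, and Myof, which encodes the membrane repair protein myoferlin, at 1.71 in control culture and 2.21 in Wnt1 culture. Both were above the noise level on 3 of the 8 arrays and on none of the stalk arrays, so these differences start from values close to noise. The lower ones were Asap1, at -1.28 in control culture, and Fjx1, at -1.79 in Wnt1 culture, and in both at least 1 other probe set had the opposite sign. Under quantile normalization none passed in control culture and 1 fell in Wnt1 culture, and without either stalk replicate 0 of the 17 passed.

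Of 24 targets of Srf in the cytoskeleton and in smooth muscle besides the members, 10 rose and 0 fell in control culture, with a median of 1.16, where 16.8% of all tested probe sets rose and 6.42% fell. In Wnt1 culture 11 rose and 0 fell, with a median of 1.52, where 7.09% of all tested probe sets rose and 4.34% fell. Tagln, which encodes the smooth muscle protein transgelin, read 13439 and 41328 in Wnt1 culture, 12300 and 9306 in control culture, 133 and 123 in tip and 189 and 232 in stalk. Acta2, which encodes smooth muscle actin, read 122878 and 107622 in Wnt1 culture, 101822 and 89032 in control culture, 800 and 3160 in tip and 3321 and 4457 in stalk. In both genes the culture arrays were far above the uncultured ones, and the differences from stalk in control culture were 5.40 ± 0.45 (SE) for Tagln, with adjusted p = 5.8e-05, and 4.61 ± 0.53 for Acta2, with adjusted p = 0.00061. The Tagln values of tip and stalk were below the noise level, and with the stalk values raised to it the ratio of mean signals was 36.2 in control culture and 91.7 in Wnt1 culture. Tpm2, a tropomyosin, differed from stalk by 2.81 in control culture and 2.98 in Wnt1 culture. Cnn1, which encodes calponin, differed by 3.96 in Wnt1 culture, with all tip and stalk values below the noise level and a ratio of 8.89 when the stalk values were raised to it. Under median centring 3 of the 24 rose and 1 fell in control culture, 3 rose and 0 fell in Wnt1 culture, and the list medians were -0.03 and 0.53. With signals below 299 set to 299, 1 rose and 0 fell in each culture. Without stalk replicate 1, 5 rose in each culture, and without stalk replicate 2, 4 rose in control culture and 6 in Wnt1 culture.

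**Figure D4:**
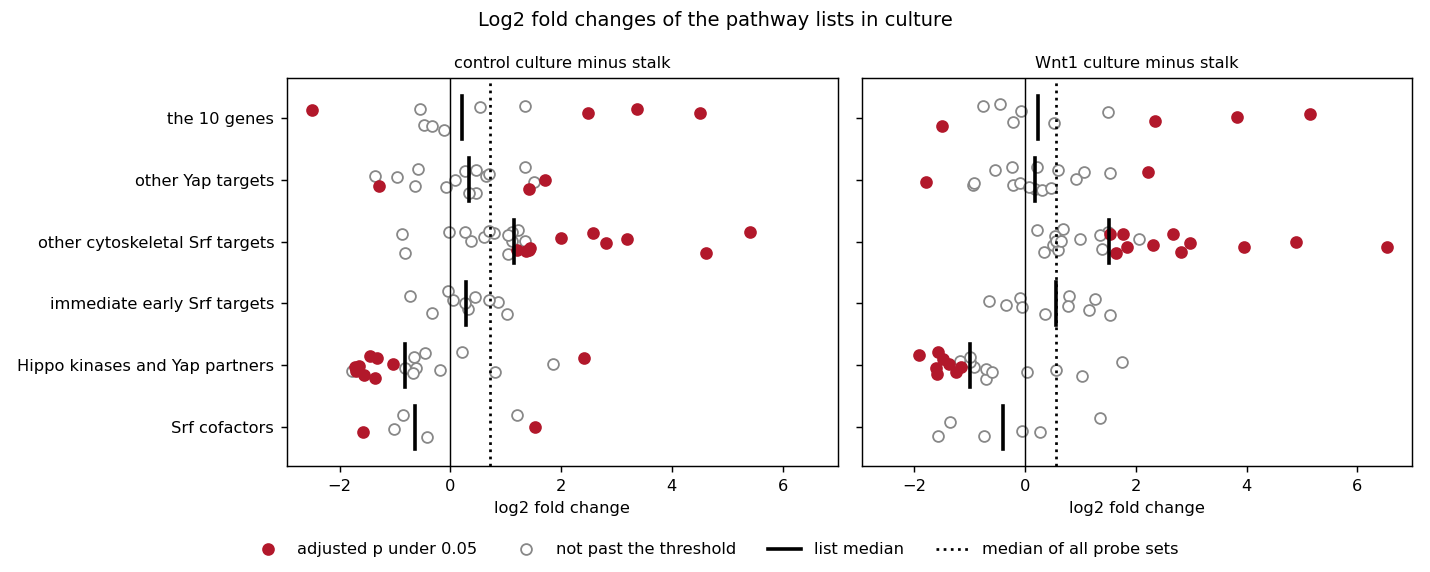
Differences from stalk, on the log2(signal + 44) scale, for every tested gene of the 10 members and of the 5 related lists, with 1 point per gene, filled where the adjusted p was under 0.05, a solid line at each list's median and a dotted line at the median of all tested probe sets. The cytoskeletal Srf targets lie mostly above 0 and the Hippo kinases and Yap partners mostly below it.

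Of 6 cofactors of Srf, Mrtfa, a myocardin-related coactivator, rose by 1.53 (adjusted p = 0.037) and Elk3, a factor of the Elk type, fell by 1.59 (adjusted p = 0.030) in control culture. That is 1 higher and 1 lower, where 16.8% of all tested probe sets were higher and 6.42% lower. The count of 1 higher is near that share. The stalk values of Mrtfa, 172 and 168, were below the noise level, and Elk3 has another probe set with the opposite sign. In Wnt1 culture none of the 6 passed, with 3 at an unadjusted p under 0.05, against 34.6% of all tested probe sets. Of 10 immediate early targets of Srf, 0 passed in either culture against stalk, with 0 in control culture at an unadjusted p under 0.05, against 41.8% of probe sets, and 1 in Wnt1 culture, and their medians were 0.29 in control culture and 0.56 in Wnt1 culture. Fos read 8129 and 2097 in Wnt1 culture, 4511 and 812 in control culture, 3781 and 278 in tip and 247 and 7194 in stalk. The replicates within every group lay farther apart than the group means.

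The comparison of Wnt1 culture with control culture asks what the ligand adds in culture, and no member passed it. The background was 0% of all tested probe sets, and at an unadjusted p under 0.05 it was 7.69%, against 1 of the 10 members. That gene was Ajuba, with a difference of 1.001 ± 0.42 (SE) and adjusted p = 0.61. Ajuba was also the 1 member whose groups did not overlap, higher in Wnt1 culture, against 8.93% of probe sets for higher and 16.4% for lower. Ankrd1 differed by 0.64 ± 0.50, Vcl by 0.47 ± 0.43 and Ccn2 by 0.46 ± 0.65, each with overlapping arrays. The dimmer Ankrd1 probe set did not overlap and differed by 1.07 with adjusted p = 0.68. With their brightest probe sets, differences of the other members ran between -0.29 for Lats2 and 0.16 for Ccn1. Their other probe sets ran wider, and none passed. The 3 others of Ccn1 were all lower in Wnt1 culture, between -1.52 and -0.43. Those of Lats2 ran between -0.90 and 1.65, and the second of Thbs1 was at -1.09. Of all 21 tested probe sets, 3 had an unadjusted p under 0.05: that of Ajuba, 1 of Ccn1 and 1 of Lats2. With adjusted p at least 0.18 over all probe sets, 2 arrays a group did not detect an effect of Wnt1 on these genes, which does not show that there is none. No gene of the 5 related lists passed, and the largest named differences were 1.33 for the tropomyosin gene Tpm4 and -1.39 for Tead3, each with adjusted p = 0.59. Of the 24 cytoskeletal Srf targets, 20 had a positive difference and 4 a negative one. Their median was 0.34, against -0.11 over all tested probe sets. Without overlap, 6 of them were higher and 1 lower, against 8.93% and 16.4% of probe sets. Among Hippo kinases and Yap partners 0 were higher and 5 lower. The lists were not tested as sets.

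The comparison of tip with stalk asks whether the genes differ with position along the lung bud before culture. No member passed, at either the adjusted threshold, where the background was 0%, or an unadjusted p under 0.05, where it was 0.415%. With the brightest probe sets, the differences ran between -0.41 for Lats2 and 0.44 for Amotl2, and the adjusted p was 0.99996 for each gene. The 3 other Ccn1 probe sets ran between -0.77 and 0.01, and none passed. The groups did not overlap in 2 members, Lats2 and Flna, both lower in tip with their brightest probe sets, against 14.6% of probe sets for lower and 18.5% for higher. For Lats2, 2 other probe sets did not overlap either and were higher in tip, with all tip and stalk values below the noise level. No direction is therefore given for Lats2 here. Flna differed by -0.25 and is the gene with the closest replicates. None of the 19 Hippo kinases and partners, 17 other Yap targets, 24 cytoskeletal Srf targets, 6 cofactors and 10 immediate early genes passed either, as no probe set on the array did. Of the cytoskeletal Srf targets, 0 were higher and 11 lower in tip without overlap. Their median difference was -0.32, against 0.03 over all tested probe sets. Without overlap, 3 Hippo genes were higher and 2 lower, and 3 other Yap targets were higher and 3 lower. For the cofactors it was 2 and 4, and for the immediate early genes 0 and 0. The lists were not tested as sets. Acta2 had the largest named difference, -1.24 ± 0.53 (SE), lower in tip.

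Ccn1 and Ccn2 were split within both uncultured groups. In tip, replicate 1 was 8.87 times replicate 2 for Ccn1, 4.99 times for Ccn2, 3.56 times for Amotl2 and 2.997 times for Ankrd1, the last at noise level. In stalk, replicate 2 was 19.2 times replicate 1 for Ccn1, 3.38 times for Ccn2, 1.52 times for Amotl2 and 1.49 times for Ankrd1. These ratios are for the brightest probe sets. The 3 other Ccn1 probe sets ran in the same directions, but not all of them as widely in stalk. They read 153 and 3047, 282 and 489, and 317 and 530 in stalk. In tip they read 1080 and 144, 949 and 134, and 1014 and 46.2. Fos had the same split, at 13.6 times in tip and 29.1 times in stalk, as did Egr1, a zinc finger immediate early gene, at 6.70 and 6.98 times, and Egr2, at 9.80 and 14.9 times. For the counts that follow, 44 was added to each signal, which shrinks the ratios of dim probe sets. Both ratios were then at least 2 in 2 of the 10 members, Ccn1 and Ccn2. The same held for 5 of the 10 immediate early genes, Fos, Egr1, Egr2, Egr3 and Dusp1. It held for 1 of 17 other Yap targets, F3, none of the 24 cytoskeletal Srf targets and 0.302% of all tested probe sets. The opposite split was found in 0.163%. Ajuba, at signal ratios of 0.753 in tip and 0.995 in stalk, and Flna, at 1.04 and 1.003, showed no such split. This pattern was noticed in the values and is a description, and time to freezing, dissection and labelling batch are not given and were not tested. For the brightest Ccn1 probe set it sets the result: the tip minus stalk difference of 0.02 ran between -2.03 and 2.07 across the fits that leave out 1 array.

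**Figure D5:**
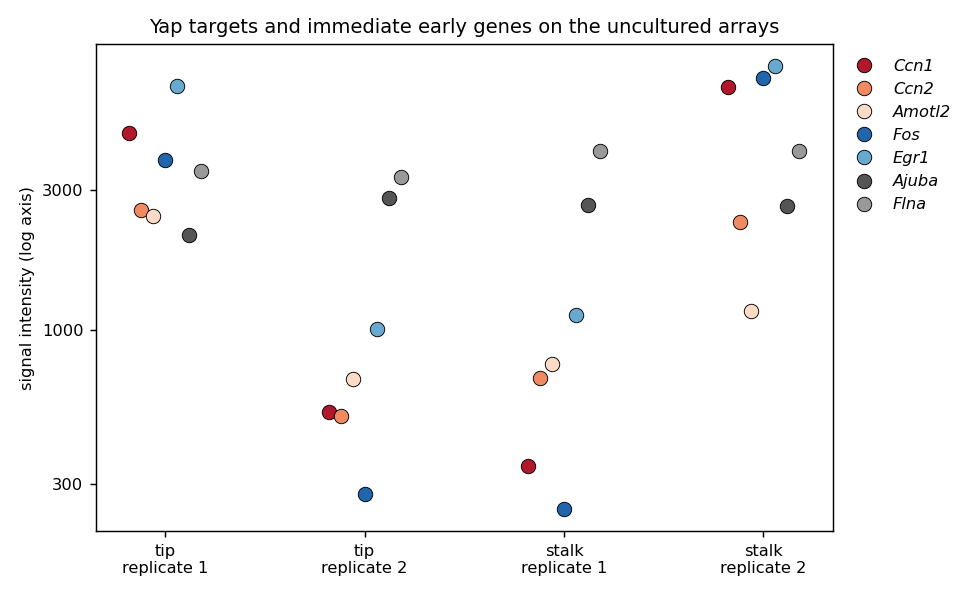
Signal intensity (log axis) of Ccn1, Ccn2, Amotl2, Fos, Egr1, Ajuba and Flna on the 2 tip and the 2 stalk arrays, with 1 point per gene and array. Ccn1, Fos and Egr1 are high on tip replicate 1 and stalk replicate 2 and low on the other two, while Ajuba and Flna stay close to level.

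Markers of the labelled tissue and of other cells moved with culture as well. For these markers the noise level is set against the mean of a group's 2 arrays, and single arrays can lie across it. Aif1 read 407 on control culture replicate 1, Emcn 342 on Wnt1 culture replicate 1 and Wnt2 218 on Wnt1 culture replicate 2. All 8 lung mesenchyme markers were above the noise level in every group, and their summed signal was 39482 and 21670 in Wnt1 culture, 33767 and 48699 in control culture, 42136 and 53764 in tip and 57234 and 50015 in stalk. Of the 8, 6 fell in control culture and 5 fell in Wnt1 culture against stalk. For the counts in this paragraph, the shares over all tested probe sets were 16.8% higher and 6.42% lower in control culture. In Wnt1 culture the shares were 7.09% higher and 4.34% lower. The 6 smooth muscle markers summed to between 149310 and 178690 in Wnt1 culture, 110240 and 125280 in control culture, 1200 and 3850 in tip and 4451 and 5643 in stalk, and 5 of the 6 rose in each culture. Some of these, such as Acta2, Cnn1 and Tagln, are also in the Srf list above. The 8 endothelial markers summed to between 1006 and 1993 in Wnt1 culture, 2061 and 2170 in control culture, 4768 and 6262 in tip and 6995 and 8358 in stalk, with Pecam1, Tie1 and Emcn at noise level in every group. Of the 7 that were tested, 4 fell in control culture and 3 fell in Wnt1 culture. The 6 macrophage markers summed to between 6204 and 7915 in Wnt1 culture, 7418 and 16257 in control culture, 915 and 3876 in tip and 2987 and 3724 in stalk. The mean of Aif1 was at noise level in every group. Of the 6, 3 rose in control culture and 2 rose in Wnt1 culture. Mrc1, named after its values were seen, went the other way without passing, at a mean of 206 in Wnt1 culture, 195 in control culture and 647 in stalk (adjusted p = 0.11 for Wnt1 culture and 0.077 for control culture). The 7 epithelial markers summed to between 3837 and 12391 in Wnt1 culture, 4880 and 5137 in control culture, 1565 and 2557 in tip and 1449 and 1648 in stalk, with Cdh1 and Sox2 at noise level throughout. Of the 7, 2 rose in control culture and 1 rose in Wnt1 culture. The 4 erythroid markers on the array summed to between 128120 and 230580 in Wnt1 culture, 145770 and 333380 in control culture, 64314 and 67546 in tip and 47883 and 77918 in stalk, although 3 of the 4 fell in control culture and 2 fell in Wnt1 culture. The 6 mesothelial markers summed to between 4082 and 5464 in Wnt1 culture, 4732 and 6339 in control culture, 4420 and 7503 in tip and 3266 and 3533 in stalk. Of the 6, 1 rose in each culture, which in control culture is near the share over all probe sets. Of the 4 neuronal markers on the array, 3 were at noise level in every group and 1 rose in each culture. The part of these shifts in the results for the members was not tested.

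The probe sets whose patterns over the 8 arrays were closest to 3 of the called members were found by Euclidean distance between log2 values after each was centred on its mean. For Ankrd1 they belonged to S100a6 (distance 0.92), a calcium-binding protein gene, Actc1 (1.40), the cardiac actin gene, and Clec4d (1.43). For Ccn2 they were Ces5a (1.61), Tnfrsf12a (1.88), the receptor of the cytokine Tweak, and Hspb1 (2.07), a small heat shock protein gene. For Ajuba they were Bnip2 (0.45), Hic1 (0.46) and Usp38 (0.51), all lower in culture. The arrays share the culture contrast, so many probe sets can lie close to these patterns.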

How the data were processed

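RNA from embryonic mouse lung mesenchyme went through 2 cycles of cDNA synthesis and biotin labelling, per the labels' protocols, and onto 1-colour Affymetrix arrays, 2 for each of the 4 groups. The deposited values are MAS5 signal intensities that the authors computed in Expression Console of Affymetrix, per the submitters' processing notes, and the files put the 2% trimmed mean of every array at 500. Detection calls were not used here, so noise is judged by the highest array median, and the small number of arrays limits the precision.

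The values were kept as deposited, and log2(signal + 44) was tested with limma 3.58.1 in R 4.3.3, with all 8 arrays in 1 fit, moderated variances with an intensity trend and Benjamini-Hochberg adjustment over 37394 probe sets at a threshold of 0.05. Control probe sets and those above 96.59, the 40th percentile, on fewer than 2 arrays were left out. Of 45101 probe sets, 34945 have 1 gene symbol in the platform annotation, 932 have several and 9160 have none. An exact permutation test of 2 against 2 arrays cannot go below p = 0.33 and was not used. The fit was tested on simulated data.

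The 10 genes, the related lists and the markers were chosen with earlier results of these data known. Named are all members, per related list and direction up to 3 genes with the smallest p among those past the threshold or else the 2 largest differences, and the 3 nearest patterns of Ankrd1, Ccn2 and Ajuba. Yap1 in control culture, Tpm2 and Tead3 in Wnt1 culture, and the genes named for the replicate split and Mrc1 were added outside this rule, with their values known. The alternatives were other pseudocounts, filters, a signal floor, normalizations, fits, probe set rules, left-out arrays, a replicate block and a threshold of 0.10. Motifs were searched in RefSeq promoters with Python 3.11.15.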

Additional observations from a re-analysis of the deposited data

How the results depend on the processing

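The counts of members past the test in the comparisons of tip with stalk and of Wnt1 culture with control culture were 0 under every alternative run. In control culture against stalk the 3 higher and 1 lower members became 0 and 0 with signals below the highest array median raised to it, and 1 higher with arrays centred on their median or on the median of the tested probe sets (the second added after the data were seen). In Wnt1 culture against stalk they became 0 and 0 with that floor, 1 higher with arrays centred on their median, and 0 lower after quantile normalization and without an intensity trend. That floor also cut the calls over all probe sets, to 246 higher and 411 lower in control culture and 32 and 82 in Wnt1 culture. All calls in Wnt1 culture were 2652 higher and 1624 lower in the main fit and 446 and 4550 with arrays centred on their median. After quantile normalization they were 408 and 484, and without an intensity trend 2001 and 614. Leaving out 1 array gave 1 to 3 higher and 0 to 1 lower in both comparisons. Ankrd1 passed under 22 of 23 alternatives in each culture, Ccn2 under 19 in control culture and 20 in Wnt1 culture, Thbs1 under 16 in control culture and 15 in Wnt1 culture, and Ajuba under 21 in control culture and 15 in Wnt1 culture. Without a stalk array, the calls over all probe sets in control culture against stalk were 296 higher and 197 lower (without replicate 1) and 131 higher and 83 lower (without replicate 2), against 6285 and 2401 with all arrays. After quantile normalization they were 986 and 1308, and with arrays centred on their median 742 and 6822. With the replicate block, 3 members were higher and 1 was lower in each culture, as without it, and no member's call changed. The labels do not say that the numbers pair arrays, and the correlation of same-numbered deviations was -0.01 for tip and stalk, 0.27 for the cultures and 0.15 for each culture with stalk. The cause was not tested for any of these changes.

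Differences that changed sign had not passed the test. For tip minus stalk they were Ccn1, at -0.0064 with a pseudocount of 100, -0.030 after quantile normalization, -0.058 with arrays centred on their median, -0.022 on the median of tested probe sets and -0.32 with the mean of its probe sets, Lats2, at 0.052 with that mean, and Vcl, at -0.0049 with arrays centred on their median. For Wnt1 culture minus control culture they were, with the mean of probe sets, Ccn1 at -0.57 and Lats2 at 0.19, and, with arrays centred on their median and on the median of tested probe sets, Amotl2 at 0.188 and 0.190, Thbs1 at 0.063 and 0.065, Srf at 0.071 and 0.073 and Flna at 0.105 and 0.107. For control culture minus stalk they were Amotl2, at -0.64 and -0.47 under the same centrings, Lats2, at 0.49 with the mean of probe sets, and, after quantile normalization, Srf at 0.087 and Flna at 0.29. For Wnt1 culture minus stalk they were Amotl2, at -0.46 and -0.28 under the centrings, Lats2, at 0.68 with the mean of probe sets, and, after quantile normalization, Vcl at 0.21 and Flna at 0.085. Without both culture arrays numbered 1, Amotl2 was at 0.10 for Wnt1 culture minus control culture, Lats2 at 0.58, Srf at 0.13 and Flna at 0.44 for control culture minus stalk, and Lats2 at 0.19 and Vcl at 0.49 for Wnt1 culture minus stalk. Leaving out 1 array turned the sign of 8 uncalled differences for tip minus stalk, with the ranges Ankrd1 -0.21 to 0.65, Ccn1 -2.03 to 2.07, Ccn2 -1.25 to 0.97, Amotl2 -0.44 to 1.33, Thbs1 -0.13 to 0.51, Ajuba -0.32 to 0.080, Srf -0.56 to 0.038 and Vcl -0.18 to 0.33. For Wnt1 culture minus control culture the ranges were Ankrd1 -0.036 to 1.32, Ccn2 -0.10 to 1.01, Amotl2 -0.29 to 0.27, Thbs1 -0.98 to 0.70, Lats2 -1.34 to 0.77, Srf -0.58 to 0.32, Vcl -0.084 to 1.03 and Flna -0.66 to 0.47. For control culture minus stalk they were Ccn1 -0.70 to 3.40, Lats2 -1.53 to 0.58, Srf -0.78 to 0.13 and Flna -0.68 to 0.44, and for Wnt1 culture minus stalk Ccn1 -0.55 to 3.56, Lats2 -1.71 to 0.19 and Vcl -0.63 to 0.49.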
